A study of Mus musculus and Canis lupus familiaris and Equus caballus with 9 samples.

Results

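The binding sites of the repressor NRSF (REST) in horse skin fibroblasts are described here from the single peak list that the authors deposited for the E.Derm line. The members are all entries of that list, 2185 of the 12075 peaks in the 4 lists of the series, and no measured value was used to choose them. E.Derm (NBL-6) is an established fibroblast line from the skin of a quarterhorse, used at passage 10. The horse experiment had 2 samples immunoprecipitated with an NRSF monoclonal antibody and 1 input DNA sample, and none of the labels names a treatment or a genetic change. About 20000000 cells per replicate were fixed with 1% formaldehyde, and fragments of 200 to 300 bp were kept for the libraries. The other lists, used as background, come from mouse RAW264.7 macrophages (2357 peaks), dog ML2 myelomonocytic leukaemia cells (2273 peaks), both at passages 13 to 15, and human cells that no sample label describes (5260 peaks).

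NRSF binds a long DNA element, the NRSE or RE1, through its zinc fingers and recruits corepressor complexes that remove active histone marks. It is known for keeping neuronal genes silent in cells outside the nervous system, fibroblasts included. The series title places the lists around the evolution of that element, a question that needs sequence. Here each horse peak is a position and nothing more: the list gives no height, no enrichment and no value per replicate. The horse genome build is not given in the sources used here, and no horse sequence or gene annotation was used, so peaks are given by position, no gene is named at them and no motif was searched. Positions are printed as the list holds them, and whether they count from 0 or from 1 is not stated. Expression of fibroblast markers cannot be read from binding sites, so the labelled cell type was not checked against the data.

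Every horse peak was 400 bp wide, every start was a multiple of 5, and none of the 2185 peaks overlapped another. Together they covered 874 kb. The list held peaks on 32 chromosomes, namely 1 to 31 and X. Because both immunoprecipitated samples share 1 list, no replicate error can be given and the read depth is unknown. All intervals below are 95% intervals for counting error alone. They treat peaks as independent, which neighbouring peaks are not, so they are too narrow where peaks cluster. Intervals that lie apart are therefore a description and no test of a difference. With 1 list per species, no test was made between lists.

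Horse chromosomes differed widely in how many NRSF peaks they carried for their length. Chromosomes 12, 11 and 13 had the most peaks per Mb and chromosomes 27, 30 and 26 the fewest. Length was taken as the position of the last peak, since chromosome lengths were not at hand, which makes a density slightly too high where the end of a chromosome has no peak. The whole list had 0.933 peaks per Mb (exact Poisson interval 0.894 to 0.973). Chromosome 12 had 75 peaks in 32.7 Mb, or 2.29 per Mb (1.80 to 2.87). Chromosome 11 had 138 peaks in 61.3 Mb, or 2.25 per Mb (1.89 to 2.66). The intervals of these 2 chromosomes overlap almost completely, so their order is not resolved. Chromosome 13 followed with 71 peaks and 1.69 per Mb (1.32 to 2.14). At the other end, chromosome 27 had 8 peaks in 39.4 Mb, or 0.203 per Mb (0.0876 to 0.40). Chromosome 30 had 12 peaks (0.406 per Mb, 0.210 to 0.710) and chromosome 26 had 19 (0.456 per Mb, 0.274 to 0.711). The density of chromosome 12 was 11.3 times that of chromosome 27, and their intervals lie far apart. They were picked as the highest and the lowest density, so that distance is partly built in. For autosomes of the background lists the ratio of highest to lowest density was 2.47 in mouse, 7.40 in dog and 4.97 in human. These ratios of extremes rest on 31 horse, 19 mouse, 38 dog and 22 human autosomes. The lowest horse value rests on 8 peaks.

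**Figure D1:**
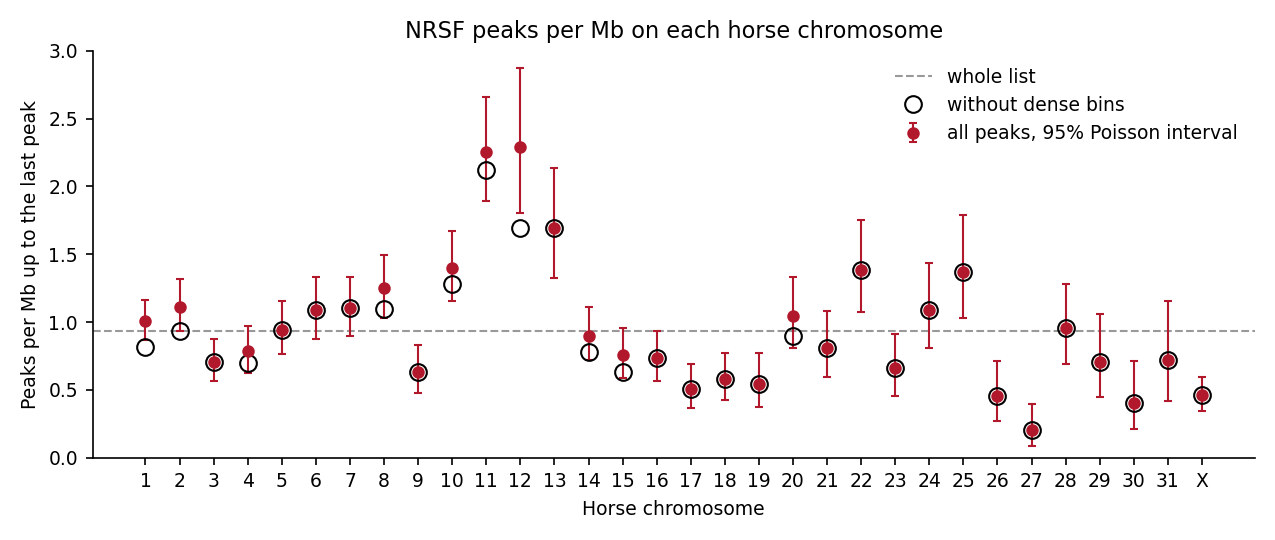
Peak density, in peaks per Mb of length (vertical axis), for each horse chromosome (horizontal axis). Filled points are all peaks with exact Poisson 95% intervals, open circles leave out the peaks and the length of the dense 1 Mb bins, and the dashed line is the whole list at 0.933 per Mb. Without its 2 dense bins chromosome 12 drops from 2.29 to 1.69 per Mb, level with chromosome 13, and chromosome 11 goes from 2.25 to 2.12 without its 1 dense bin.

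The number of peaks followed chromosome length, but the density did not. Across the 31 autosomes, the number of peaks and the length gave a Pearson r of 0.77 and a Spearman rho of 0.74, as a description of these chromosomes. For peaks per Mb and length the values were -0.05 and 0.13. In all, 13 of the 32 chromosomes had more than 1 peak per Mb, and 4 had fewer than 0.5. The 5 densest chromosomes (12, 11, 13, 10 and 22) held 468 peaks, 21.4% of the list, on 11.5% of the summed length. Chromosome 1, the longest, had the most peaks (185) at an ordinary density of 1.01 per Mb.

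Part of the rank of chromosome 12 came from 2 crowded megabases. Bins of 1 Mb that hold 10 or more peaks are called dense bins here. With their peaks and their length left out, chromosome 12 stood at 1.69 per Mb, level with chromosome 13, which had no dense bin. Chromosome 11 then had the highest density, with 2.12 per Mb. Horse chromosome 11 is known to carry much the same genes as human chromosome 17. In the human list, chromosome 17 ranked 3 among the autosomes with 2.78 peaks per Mb (2.43 to 3.17). Human autosomes together had 1.79 per Mb. Human chromosome 19 ranked 1, with 4.66 per Mb (4.12 to 5.24). The human values keep the dense bins, and on that measure horse chromosome 11 ranked 2 with 2.25 per Mb. No human counterpart was set beside horse chromosomes 12 and 13, so this is 1 pair only. These values stand side by side, without a match of single sites.

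Chromosome X carried few NRSF peaks for its length, and they were unevenly placed. It had 56 peaks in 121.8 Mb, or 0.460 per Mb (0.347 to 0.597), compared with 0.959 (0.919 to 1.00) on the autosomes together. The intervals do not overlap, and the autosomes had 2.09 times the density of X. Autosomes also had more peaks per Mb than X in the mouse list (2.74 times), the dog list (2.51 times) and the human list (2.60 times), so the low value is not particular to horse. The number of copies of X in the cells and the share of each chromosome to which reads can be mapped were not examined. Within X, the 20 Mb from 80 to 100 Mb held 17 peaks (0.850 per Mb), and the 20 Mb from 60 to 80 Mb held 2 (0.100 per Mb). Of the 56 peaks, 20 had another within 100 kb. Tight groups were also found on X: 2 of the 5 runs of 3 or more peaks within 2 kb of one another in the horse list lay there, at 1846305 to 1847845 and at 118579325 to 118581585.

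The two-armed autosomes carried more peaks for their length than the autosomes with the centromere near 1 end. In the horse karyotype, chromosomes 1 to 13 and X have 2 arms, and chromosomes 14 to 31 are acrocentric. The 13 two-armed autosomes had 1348 peaks and 1.12 peaks per Mb (1.06 to 1.18). The 18 acrocentric ones had 781 peaks and 0.770 per Mb (0.717 to 0.826). The intervals do not overlap, although single chromosomes do: densities ran from 0.636 to 2.29 in the first set, with a median of 1.10, and from 0.203 to 1.38 in the second, with a median of 0.728. Without dense bins the 2 sets stood at 1.02 and 0.739 per Mb. Chromosome X, also two-armed, goes the other way: its 0.460 per Mb lay below all acrocentric chromosomes but 26, 27 and 30. Grouping by chromosome shape was chosen after densities had been seen.

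In the autosomes, the outermost stretches of the chromosomes held more peaks for their length than the middle. Each chromosome was cut into 10 equal segments from position 0 to its last peak. In all chromosomes together, segment 1 had 1.26 peaks per Mb (1.12 to 1.41) and segment 10 had 1.20 (1.06 to 1.35). Segment 6, near the middle, had the fewest, with 0.666 (0.566 to 0.779). On chromosomes 1 to 13 the density went down from 1.43 per Mb in segment 1 to 0.821 in segment 6 and was 1.27 in segment 10. Segments 2 and 3 there, with 1.39 and 1.27 per Mb, were not below segment 10. On chromosomes 14 to 31 segments 1 and 10 had the highest values, with 1.10 and 1.13 per Mb. The lowest value there was in segment 3, with 0.454 (0.332 to 0.605). The order between the ends was uneven there, with 0.937 and 0.789 per Mb in segments 4 and 5 and only 0.681 and 0.621 in segments 2 and 9. On X, segment 7 was highest (1.4 per Mb, 0.813 to 2.24), above segment 1 (0.821) and segment 10 (1.07). Segment 10 holds the last peak by construction, which adds 1 peak per chromosome and was not corrected for. On chromosomes 14 to 31 its interval (0.936 to 1.36) overlapped that of segment 4 (0.758 to 1.15). Dense bins added to some segments: without them segment 9 of chromosomes 1 to 13 went from 1.14 to 0.851 per Mb, and segment 1 from 1.43 to 1.31. Gene density along horse chromosomes was not examined.

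**Figure D2:**
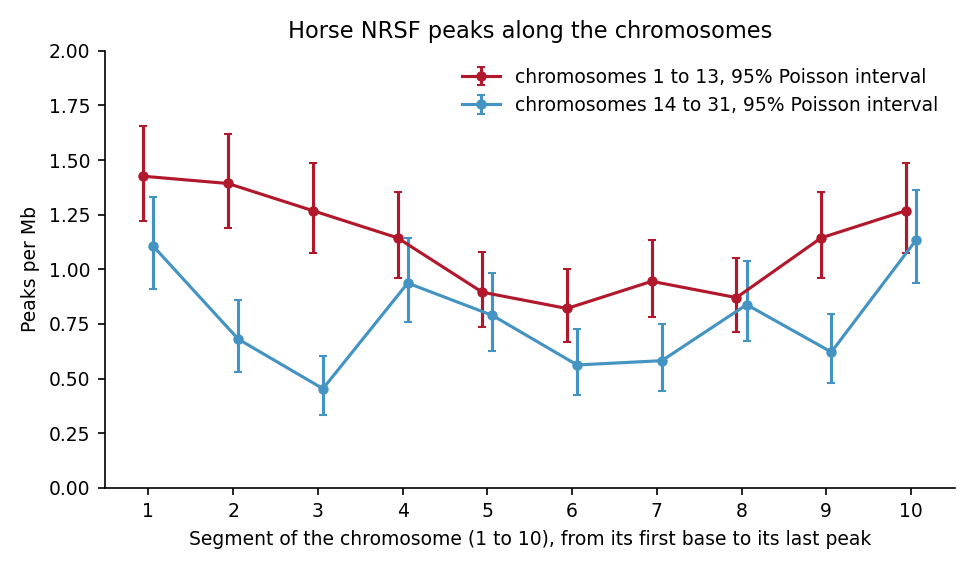
Horse NRSF peaks per Mb (vertical axis) in each of 10 equal segments of the chromosome, counted from its first base to its last peak (horizontal axis), with exact Poisson 95% intervals. Chromosomes 1 to 13 are lowest in segment 6 (0.821 per Mb) and chromosomes 14 to 31 in segment 3 (0.454 per Mb), and segments 1 and 10 are high in both sets.

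The distances between neighbouring horse peaks spanned more than 4 orders of magnitude. The list gave 2153 distances between the starts of consecutive peaks on a chromosome, from 470 bp to 18.2 Mb. Their median was 374 kb (order-statistic interval 321 to 417 kb), and their mean was 1070 kb. Many short steps thus stood beside a few very long stretches. The lower quartile was 65.2 kb, the upper quartile 1228 kb, and 5% of distances were at most 3.39 kb. In all, 1527 of the distances (70.9%) were under 1 Mb. The median was 434 kb in mouse (398 to 468 kb) and 457 kb in dog (416 to 513 kb), lists of similar length with mean distances of 1107 and 994 kb.

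Close pairs, trios and small groups made up a minor part of the list at short range and a larger one at 100 kb. Within 5 kb, 250 horse peaks had a neighbour (11.4%, exact interval 10.1 to 12.9%). Within 20 kb there were 497 (22.7%), within 50 kb 734 (33.6%) and within 100 kb 980 (44.9%, 42.8 to 47.0%). At 100 kb the share was 39.0% in mouse (37.0 to 41.0%) and 37.7% in dog (35.7 to 39.7%), both below the horse interval. In the longer human list it was 56.9% (55.5 to 58.2%), above the horse interval. With the dense bins of each list left out, a comparison chosen after seeing the data, the 100 kb share was 40.8% in horse (38.6 to 43.0%). It was 36.7% in mouse (34.7 to 38.7%) and 34.8% in dog (32.8 to 36.9%), so the horse and mouse intervals then met at this reach. At 10 kb without dense bins they stayed apart, with 13.4% in horse (11.9 to 15.0%) and 8.24% in mouse (7.14 to 9.45%). The dog share there was 10.6% (9.37 to 12.0%), which met the horse interval. With all peaks, the horse and mouse intervals were apart at 2, 5, 10, 20, 50 and 100 kb. They overlapped at 0.5 kb, 1 kb and 1 Mb. The horse and dog intervals were apart at 50 and 100 kb, and they overlapped at 20 kb (21.0 to 24.6% and 18.3 to 21.6%), at 10 kb and at every shorter reach counted. Within 1 kb the horse and dog shares were 4.21% and 4.27%, and within 1 Mb they were 86.1% and 86.5%, inside each other's intervals.

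**Figure D3:**
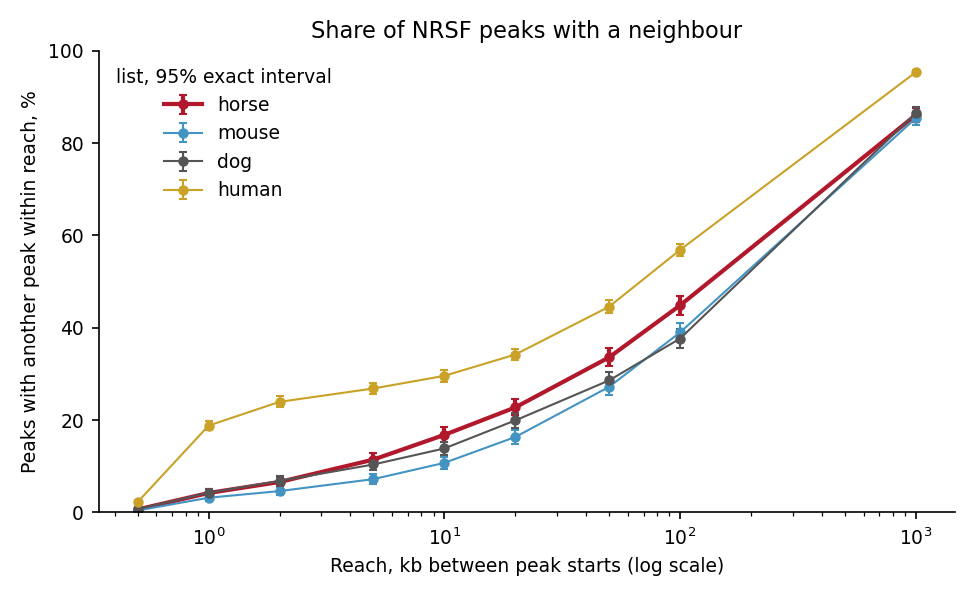
Share of peaks with another peak of the same list within a given reach (vertical axis, percent, exact 95% intervals) against the reach between peak starts in kb (horizontal axis, log scale). The horse line lies with the dog line at 1 kb (4.21% and 4.27%). It lies above the mouse and dog lines at 100 kb (44.9% against 39.0% and 37.7%) and joins them again at 1 Mb. The human line lies above the horse line at every reach, with 56.9% at 100 kb.

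Peaks within 10 kb of one another formed 161 groups with 367 members, 16.8% of the list. Most groups were pairs: 133 had 2 peaks, 17 had 3, 7 had 4, 2 had 5 and 2 had 6. The groups of 6 lay on chromosome 11 at 19957125 to 19987795, spread over 30.7 kb, and on chromosome 12 at 25586765 to 25596515, packed into 9.75 kb. The groups of 5 lay on chromosome 2 at 48893635 to 48903565 (9.93 kb) and on chromosome 20 at 26068535 to 26075435 (6.90 kb). The group on chromosome 2 contains the only 4 horse peaks that follow each other at distances of at most 2 kb, with steps of 0.695 to 1.60 kb. Each of these groups lies in a longer crowded stretch, described below.

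Chromosomes also differed in how often their peaks came in close groups. On chromosome 12, 29 of 75 peaks (38.7%) had a neighbour within 10 kb, the highest share of any chromosome. Its dense bins (17 to 18 and 25 to 26 Mb) held 3 and 6 steps of at most 10 kb. Part of this share thus comes from these places. Chromosome 21 had 14 of 46 (30.4%) at a density of 0.811 per Mb, below that of the whole list. Chromosome 25, with a density of 1.37 per Mb, had none among 54 peaks, which allows a share of up to 5.56% when a count of 0 is taken to allow 3 peaks. Chromosome 19 had none among 32, which allows up to 9.38% by the same rule. In all, 5 chromosomes (19, 25, 27, 30 and 31) had no peak with a neighbour within 10 kb. Chromosomes 27, 30 and 31 had only 8, 12 and 17 peaks. The same rule allows them up to 37.5%, 25% and 17.6%, all above the 16.8% of the whole list.

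The closest horse peaks started about 0.5 kb apart. The smallest distance between starts, 470 bp, occurred on chromosome 4 (9408505 and 9408975) and on chromosome 17 (19031565 and 19032035), leaving 70 bp between the peak edges. Next came pairs on chromosome 4 (101540330 and 101540805, 475 bp), chromosome X (118579325 and 118579805, 480 bp) and chromosome 13 (2464405 and 2464895, 490 bp). In total 7 distances were at most 500 bp and 48 were at most 1 kb. No start lay less than 470 bp from the next, so peaks of 400 bp never touched, and the smallest distance in the other lists was 455 to 460 bp. Whether such a pair holds 2 bound elements cannot be read from positions.

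The most crowded part of the horse list was a stretch of chromosome 1. Between 162372235 and 163211255, 37 peaks followed each other with no gap above 84.8 kb, in 839 kb. These are 20.0% of all peaks on chromosome 1 and 1.69% of the list. The density there was 44.1 peaks per Mb, 54.5 times that of the rest of chromosome 1 (0.809 per Mb). The nearest other peaks lay 519 kb before it and 1446 kb after it, where the list had a median distance of 374 kb and a mean of 1070 kb. The stretch was picked as the chain with the most peaks at steps of at most 100 kb. Its high density and the gaps beside it are thus partly built in. Since a bin edge at 163 Mb cuts it, it appears as 2 neighbouring dense bins of 26 and 11 peaks, and a 1 Mb window placed freely held all 37. The most in any free 1 Mb window was 36 in mouse, on chromosome 4, 19 in dog and 22 in human.

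Inside this stretch, tight pairs stood among wider steps. Its first 7 peaks were 51.7 to 84.8 kb apart. Of the 36 distances in it, 16 were at most 10 kb and 7 at most 2 kb (530, 570, 635, 720, 950, 1190 and 1220 bp). Steps of at most 2 kb were thus 19.4% of its distances (exact interval 8.19 to 36.0%). Since the stretch was chosen as a chain of steps of at most 100 kb, only such steps can be set beside it: elsewhere in the list 68 of 612 were at most 2 kb (11.1%, 8.73 to 13.9%), which lies inside that interval. The median step was 14.6 kb. What sequence or genes lie there was not examined.

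Beyond chromosome 1, 8 more runs held 8 to 14 peaks with steps of at most 100 kb. The 9 runs together lay on 7 chromosomes and held 121 peaks, or 5.54% of the list. Chromosome 8 had 2 of them close together, 14 peaks at 3731645 to 4130325 and 12 peaks at 4781235 to 5088515, together 22.2% of its 117 peaks. The run on chromosome 12 at 17130535 to 17469525 had 11 peaks in 339 kb. Runs of 10 lay on chromosome 11 at 41583365 to 41902605, on chromosome 14 at 36034660 to 36117405 and on chromosome 20 at 26068535 to 26140115.

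The runs ranged from compact to wide. In the runs on chromosomes 8 and 12 and the run of 10 on chromosome 11, the median step was 23.2 to 35.2 kb and the density 31.3 to 39.1 peaks per Mb. The run on chromosome 20 fitted 10 peaks into 71.6 kb, with a median step of 3.26 kb, or 140 peaks per Mb. The run on chromosome 14 fitted 10 into 82.7 kb, with a median step of 7.79 kb and only 1 step of at most 2 kb. The second run on chromosome 11, with 8 peaks at 19939415 to 20001935, had 128 peaks per Mb and a median step of 8.8 kb. A run of 9 on chromosome 2 at 20173705 to 20406935 had 38.6 per Mb and a median step of 13.1 kb. The run on chromosome 1, with a median step of 14.6 kb, also lay between the compact and the wide runs.

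**Figure D4:**
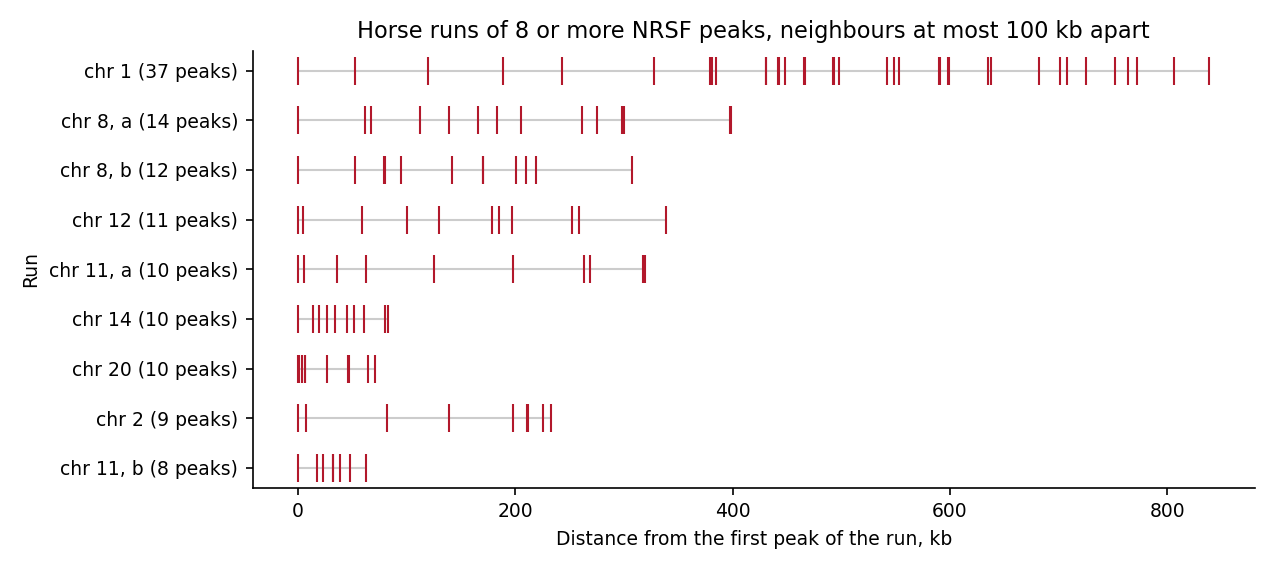
Each tick is 1 horse NRSF peak, placed by its distance in kb from the first peak of its run (horizontal axis), for the 9 runs of 8 or more peaks with steps of at most 100 kb (vertical axis, by chromosome; a and b are separate runs of 1 chromosome). The run on chromosome 1 extends over 839 kb with pairs of ticks that merge at this scale, whereas those on chromosomes 14 and 20 fit 10 peaks into 82.7 and 71.6 kb.

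Seen in fixed bins of 1 Mb, most of the horse genome between the outermost peaks had no NRSF peak or 1. Of 2332 bins, 1277 were empty (54.8%, exact interval 52.7 to 56.8%) and 568 held 1 peak. A further 398 bins held 2 to 4 peaks, 996 in all. The 89 bins with 5 or more peaks were 3.82% of the bins and held 621 peaks, 28.4% of the list. The share of empty bins was 53.4% in mouse, 47.2% in dog and 35.4% in the longer human list.

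**Figure D5:**
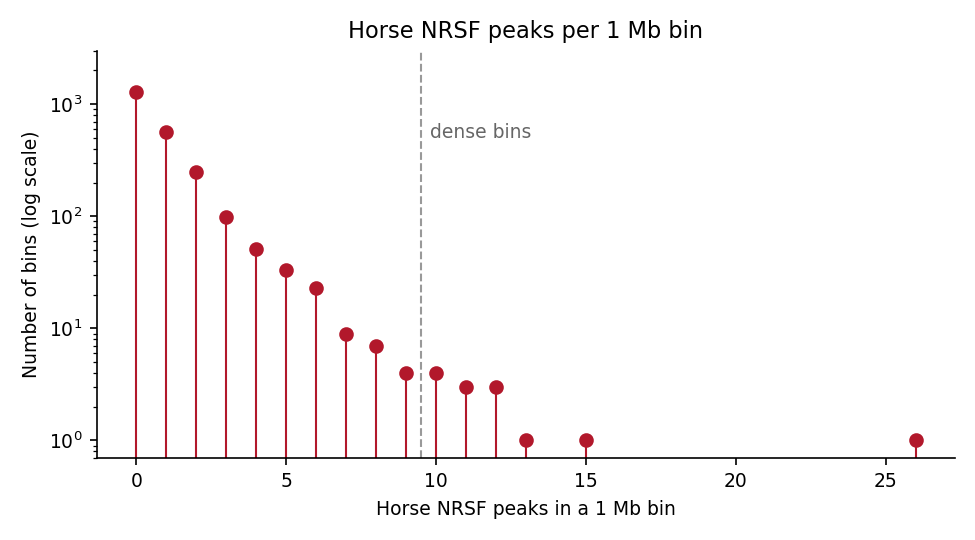
Number of 1 Mb bins (vertical axis, log scale) by the number of horse NRSF peaks they hold (horizontal axis). Empty bins number 1277 and bins with 1 peak 568, the 13 dense bins lie to the right of the dashed line, and the bin with 26 peaks stands alone.

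The 13 dense bins lay on 10 chromosomes and held 163 peaks. After the bin with 26 on chromosome 1 came 15 peaks on chromosome 8 (4 to 5 Mb) and 13 on chromosome 2 (20 to 21 Mb). Bins with 12 lay on chromosome 12 (17 to 18 Mb), chromosome 14 (36 to 37 Mb) and chromosome 15 (13 to 14 Mb). Bins with 11 lay on chromosome 1 (163 to 164 Mb), chromosome 10 (13 to 14 Mb) and chromosome 12 (25 to 26 Mb). Bins with 10 lay on chromosome 2 (48 to 49 Mb), chromosome 4 (102 to 103 Mb), chromosome 11 (41 to 42 Mb) and chromosome 20 (26 to 27 Mb). These bins were not alike inside. Peaks on chromosome 4 were spread over 884 kb with a median step of 106 kb and no step within 2 kb, and those on chromosome 10 over 832 kb with a median step of 97.4 kb. Those on chromosome 20 filled 71.6 kb. On chromosome 12 (25 to 26 Mb) the median step was 2.74 kb, although the 11 peaks spanned 534 kb. The bin on chromosome 15 held 17.4% of the peaks of its chromosome, the highest such share.

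Peaks were unevenly spread at every bin size counted. The variance of the number of peaks per bin, divided by its mean, was 1.54 for bins of 0.1 Mb, 2.91 for 1 Mb, 5.67 for 5 Mb and 7.53 for 10 Mb. The ratio kept rising up to 10 Mb, so counts also differed between stretches of several Mb. It can rise with the mean number per bin, so a second measure was taken. Its excess over 1, divided by that mean, went down from 5.71 for 0.1 Mb to 2.03 for 1 Mb and 0.75 for 10 Mb, so relative to the mean the spread was widest in small bins. Without the 37 peaks of the chromosome 1 stretch the ratios were 1.47, 2.62, 5.12 and 7.14, so the unevenness was not that of 1 place. At 1 Mb the ratio was 2.58 in mouse, 2.22 in dog and 2.89 in human, the last with a higher mean number per bin (1.78 against 0.937).

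Long stretches without a peak made up much of the length between the outermost peaks of the chromosomes. Stretches of 5 Mb or more numbered 83, lay on 30 of the 32 chromosomes and added up to 706 Mb, or 30.6% of that length. Chromosomes 13 and 31 had none. Of these stretches 21 were 10 Mb or longer, on 16 chromosomes. Mouse had 92 stretches of 5 Mb or more (28.3% of the length) and dog 62 (20.6%), and of 10 Mb or more 14 and 8.

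The longest empty stretch was on X, 18.2 Mb from 55997980 to 74154935. It was followed by 16.6 Mb on chromosome 23 (20710375 to 37312865), 15.5 Mb on chromosome 30 (12473625 to 27948420), 15.0 Mb on chromosome 28 (5001205 to 20048585) and 14.3 Mb on X (24318565 to 38667990). Whether an empty stretch holds no site, or sequence to which reads could not be mapped, cannot be told apart from positions. Chromosome X had 7 stretches of 5 Mb or more, 59.4% of its length. On chromosome 30 they took up 83.4% of the length and on chromosome 27 74.9%.

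The sparse chromosomes show what this looks like peak by peak. Chromosome 30 had 7 of its 12 peaks between 27948420 and 29523195 and 4 between 1051535 and 3329215, with 1 peak at 12473225 in between. The 8 peaks of chromosome 27 began at 3500325, 4428175, 7426685, 9768250, 23926745, 34111260, 39286380 and 39414595. The peak at 23926745 was the most isolated of the list, 10.2 Mb from its nearest neighbour. In the whole list, 304 peaks (13.9%, 12.5 to 15.4%) had no neighbour within 1 Mb, 120 (5.49%) none within 2 Mb and 13 (0.595%) none within 5 Mb.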

How the data were processed

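NRSF ChIP-seq had been done on 2 samples and 1 input in each of 3 species. Groups come from the sample titles, and per the labels both ChIP samples of a species share 1 peak list. The authors deposited chromosome, start and end only, so the unit is position in bp. The submitters' processing notes name the aligner Bowtie 0.12.8 and the peak caller MACS 1.4.2 without saying how they were run. The builds they list are CanFam3.1, mm10 (GRCm38) and hg19 (GRCh37). For horse no build is among them. Peak threshold and joining of replicates: not given in the sources used here. A list joined from 2 samples can hide peaks seen in 1, and a fixed width hides how broad each peak was.

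Distances run between the starts of consecutive peaks on a chromosome, and a peak counts in the bin of its start. Bins run from the first to the last peak of a chromosome. A run is a chain of peaks with each step within the reach named. Regions were named by a rule: all bins with 10 or more peaks, the 5 longest empty stretches, the 3 chromosomes with the most and the fewest peaks per Mb, X, and the 5 closest pairs. Other regions (runs, close groups, chromosomes 1, 19, 21 and 25) were picked once values had been seen. The list and the measures were chosen with earlier results of these data known. Intervals are Clopper-Pearson for shares (limits for a count of 0 take 3 peaks instead), Poisson for counts and order-statistic for medians. Counting functions were tested on 50 simulated lists. Python 3.11.15, numpy 2.4.6, pandas 2.3.3, scipy 1.17.1 and matplotlib 3.10.9 were used.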

Additional observations from a re-analysis of the deposited data

How the results depend on the processing

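Of 29 alternative values, 16 stayed within the counting interval of the reported value (within 1.5 times for counts) and 13 did not. Some could not move: no peaks touched, the list had only numbered chromosomes and X, and X had no dense bin. A changed reach or minimum counts a different quantity. The tally is therefore no measure of how stable the results are. No value had a test. The share with a neighbour within 10 kb, 16.8%, was 6.59% at 2 kb, 11.4% at 5 kb, 22.7% at 20 kb and 13.4% without the dense bins. The number of dense bins, 13, was 24 with 8 or more peaks and 6 with 12 or more, and their share of peaks, 7.46%, was 11.7% and 4.12%. With bins that start at 500 kb the share was 9.89%, with 17 bins, so the place of the bin edges matters. Without the run on chromosome 1, an alternative chosen after seeing the data, it was 5.87%. Empty stretches, 83 from 5 Mb, numbered 126 from 4 Mb. The median distance, 374 kb, was 439 kb without dense bins. Chromosome 12 went from 2.29 to 1.69 peaks per Mb without their peaks and length. No paired analysis was possible because both replicates share 1 list, and for the same reason no replicate could be left out. Depth, threshold and mappability were not examined.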
